A study of Mus musculus with 10 samples.

Results

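The cytochrome P450 enzymes of families 2 and 3 were described in colon RNA of mice fed a pro-inflammatory or a normal diet. Members were chosen by name: every gene symbol of the deposited table made of Cyp2 or Cyp3, a letter and a number was taken, apart from 1 gene that the rule leaves out. This gave 46 of the 18398 genes in the table, beside 35 other P450 genes. Cyp2ab1, among these, is also of family 2 but has a subfamily name of more than 1 letter, and it had at most 0.131 FPKM. The 5 samples on the pro-inflammatory diet and the 5 on the normal diet were all labelled as colon of wild-type (WT) mice, with 1 RNA-seq library each. The make-up of the diets, the length of feeding, and the strain and age of the mice are not given in the sources used here. The series' title speaks of colitis and gut microbiota, but the labels do not say whether colitis was induced in these mice, nor which stretch of the colon was taken. Nor is it stated that each sample is another mouse, so the p-values speak for the spread among these 10 samples alone, part of which may be technical.

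P450 enzymes are haem proteins of the endoplasmic reticulum that insert 1 atom of oxygen into fats, steroids, vitamins, drugs and plant compounds, with electrons passed to them by P450 reductase. Families 2 and 3 hold many of the enzymes that handle foreign compounds, and several of them also oxidise arachidonic and linoleic acid to signalling lipids. They are best known from liver, but the lining of the gut makes its own set, and many of their genes are switched on by the nuclear receptors PXR and CAR, which sense foreign compounds and bile acids. Mouse has many more genes in subfamilies 2c and 2d than human, lying side by side in gene clusters.

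No member was called different between the diets. Values are FPKM, that is, fragments per unit of gene length and per library total, as deposited. Of the 46 members, 18 had a mean of at least 1 FPKM over all libraries and were tested with limma among 12345 genes; the other 28 had means of at most 0.642 FPKM, while the lowest tested member had 1.43. At an adjusted p under 0.05, limma with Benjamini-Hochberg adjustment called 0 of the 18, and 0.0% of all tested genes; limma voom on whole reads recovered from the values also called 0.0%. At an unadjusted p under 0.05, 0 members were higher, against 8.16% of all tested genes, and 0 were lower, against 9.25%. Groups that did not overlap were found for 0 members, against 1.77% of all tested genes in the higher and 2.07% in the lower direction. Log2 fold changes (pro-inflammatory over normal diet, on the log2(FPKM + 1) scale) were positive for 10 members and negative for 8, with a median of 0.04, against -0.01 over all tested genes. Their median size without the sign was 0.54, against 0.12 over all tested genes. The members were chosen with earlier results of these data known, so these counts are a description.

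Some libraries stood apart in genes that mark a place or a tissue, and the P450 genes varied with them. Depth was even, at 15652783 to 18341956 reads on genes per library. Hoxb13, a gene of the hindmost gut, had 0.417 and 20.9 FPKM in libraries 2 and 5 of the pro-inflammatory diet and 211 to 341 FPKM in the other 8 libraries. Summed over 5 distal colon genes (Hoxb13, Hoxa13, Hoxd13, Hoxd12 and Hoxd11), the same pair had 5.86 and 32.3 FPKM, the other pro-inflammatory diet libraries had 343 to 420, and the normal diet libraries had 261 to 403. The defining genes of the distal colon were thus low in these 2 libraries labelled colon, and which stretch of gut each sample held was not tested. Pro-inflammatory diet libraries 1 and 3 held 97.3 and 100 FPKM of Alb, the albumin of liver cells, against at most 8.45 FPKM elsewhere. Krt5, a keratin of stratified squamous epithelium, had at most 0.102 FPKM on the pro-inflammatory diet, 50.2 FPKM in normal diet library 4 and at most 0.116 FPKM in the other normal diet libraries. Of 10 listed smooth muscle genes, 7 were lower on the pro-inflammatory diet at an unadjusted limma p under 0.05, against 9.25% of all tested genes. Their summed levels were 2387 to 3264 FPKM on the pro-inflammatory and 2728 to 4055 FPKM on the normal diet. Summed epithelial genes had 7686 to 9154 FPKM on the pro-inflammatory and 6522 to 8580 FPKM on the normal diet. Of these 12 genes, 2 were higher at an unadjusted p under 0.05, against 8.16% of all tested genes. Surface colonocyte genes summed to 2272 to 5333 FPKM on the pro-inflammatory diet, highest in libraries 2 and 5, and to 1880 to 2341 FPKM on the normal diet. Members of this list differed: Car1 was highest in libraries 2 and 5, at 3568 and 2334 FPKM, whereas Aqp8, Slc26a3 and Car4 were lowest there. The ranges of the other lists overlapped: goblet cell genes had 8648 to 9954 FPKM on the pro-inflammatory and 8041 to 10028 FPKM on the normal diet, and fat cell genes had 36.2 to 263 FPKM on the pro-inflammatory and 27.7 to 104 FPKM on the normal diet. Leukocyte genes had 32.6 to 68.6 FPKM on the pro-inflammatory and 31.5 to 44.8 FPKM on the normal diet, and genes of enteric neurons and glia had 12.9 to 28.7 FPKM on the pro-inflammatory and 18.2 to 29.7 FPKM on the normal diet. The part of these cell types in the P450 values was not tested. In tissue RNA, fewer cells of a type and less RNA per cell cannot be told apart.

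Together the 46 members summed to 641 ± 191 FPKM on the pro-inflammatory and 496 ± 52.2 FPKM on the normal diet (SD, n = 5 each). By library, the sums were 589, 887, 432, 511 and 788 FPKM on the pro-inflammatory diet and 533, 444, 478, 458 and 567 FPKM on the normal diet. Pro-inflammatory diet libraries 1, 2 and 5 lay above the highest normal diet value, library 1 by little. Subfamily 2c made up 70.7% and 63.0% of the sum in these 2 libraries, against 18.3% to 26.0% in libraries 1, 3 and 4 of the pro-inflammatory diet and 17.4% to 39.3% on the normal diet. Subfamily 2d made up 20% and 23.4% in libraries 2 and 5, against 51.5% to 58.5% in libraries 1, 3 and 4 of the pro-inflammatory diet and 44.1% to 62.7% on the normal diet. The most abundant member was Cyp2c55 in libraries 2 and 5, at 45.4% and 36.9% of the sum, and Cyp2d34 in the other 8 libraries, at 23.8% to 35.3%.

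**Figure D1:**
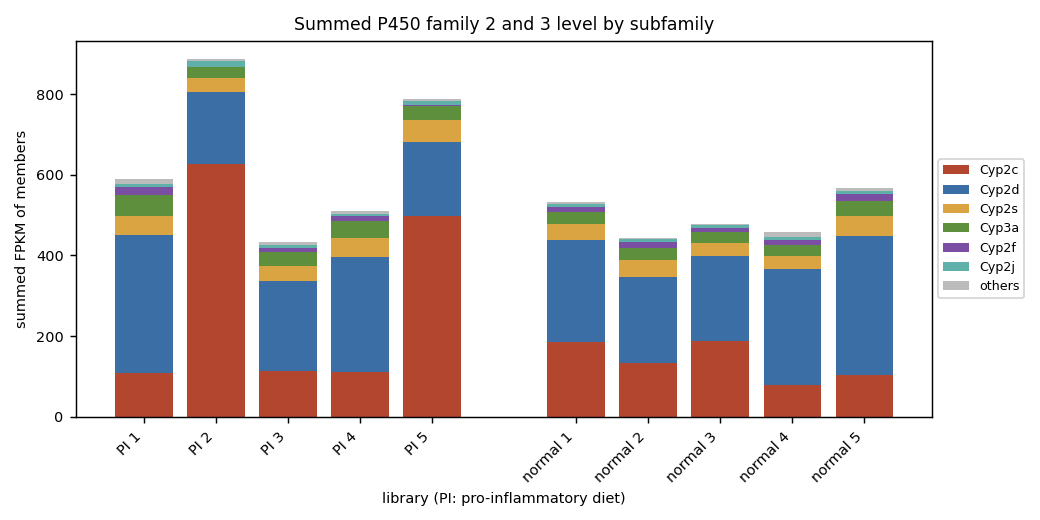
Summed FPKM of the 46 genes in each library (bars, from 0), split by subfamily (colours), with the 5 pro-inflammatory diet libraries on the left and the 5 normal diet libraries on the right. Subfamily 2c fills 628 and 497 FPKM of the bars of pro-inflammatory diet libraries 2 and 5 and at most 188 FPKM elsewhere.

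Among the Cyp2c genes, some were high and others low in pro-inflammatory diet libraries 2 and 5. Cyp2c55, Cyp2c65 and Cyp2c66 follow each other on the plus strand of chromosome 19, and Cyp2c68 and Cyp2c69 lie further along the same cluster on the minus strand. The first 3 were high in the 2 libraries and the last pair low, so the sequences around their start sites are shown for comparison. Each window runs from 250 bases before to 50 bases after the start annotated by RefSeq (GRCm38.p6), 5′ to 3′ on the strand of the gene, and capitals mark the bases from that start on. For Cyp2c65 and Cyp2c68 this start lies outside the GENCODE gene model whose coordinates are given here. A stretch from the middle of the capital bases was searched in the transcripts of each gene. It was not found for Cyp2c68 and was found for the other 4.
Cyp2c55 (chr19:39006769-39007068, plus strand): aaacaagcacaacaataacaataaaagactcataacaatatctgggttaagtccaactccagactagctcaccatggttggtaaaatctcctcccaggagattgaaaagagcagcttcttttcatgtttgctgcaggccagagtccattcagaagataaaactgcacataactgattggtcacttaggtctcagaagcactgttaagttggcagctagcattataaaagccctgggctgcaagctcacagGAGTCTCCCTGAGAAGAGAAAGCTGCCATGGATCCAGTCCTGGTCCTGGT
Cyp2c65 (chr19:39060756-39061055, plus strand): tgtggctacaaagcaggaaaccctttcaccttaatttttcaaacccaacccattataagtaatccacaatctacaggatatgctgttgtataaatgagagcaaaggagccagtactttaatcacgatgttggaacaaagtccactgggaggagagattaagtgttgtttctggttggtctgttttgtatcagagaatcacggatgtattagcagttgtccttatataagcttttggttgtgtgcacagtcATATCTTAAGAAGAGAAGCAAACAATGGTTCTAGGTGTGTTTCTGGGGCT
Cyp2c66 (chr19:39113648-39113947, plus strand): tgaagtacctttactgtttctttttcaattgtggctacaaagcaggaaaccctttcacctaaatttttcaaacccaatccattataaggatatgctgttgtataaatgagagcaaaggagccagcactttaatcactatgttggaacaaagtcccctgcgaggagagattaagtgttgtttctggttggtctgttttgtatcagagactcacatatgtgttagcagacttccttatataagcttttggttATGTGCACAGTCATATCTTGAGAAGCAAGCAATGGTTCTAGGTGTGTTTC
Cyp2c68 (chr19:39741052-39741351, minus strand): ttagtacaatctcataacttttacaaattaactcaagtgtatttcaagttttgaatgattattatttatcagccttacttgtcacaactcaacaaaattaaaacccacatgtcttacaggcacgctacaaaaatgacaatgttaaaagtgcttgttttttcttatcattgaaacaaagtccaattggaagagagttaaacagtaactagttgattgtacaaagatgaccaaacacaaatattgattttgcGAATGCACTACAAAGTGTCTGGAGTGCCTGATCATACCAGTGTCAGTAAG
Cyp2c69 (chr19:39886720-39887019, minus strand): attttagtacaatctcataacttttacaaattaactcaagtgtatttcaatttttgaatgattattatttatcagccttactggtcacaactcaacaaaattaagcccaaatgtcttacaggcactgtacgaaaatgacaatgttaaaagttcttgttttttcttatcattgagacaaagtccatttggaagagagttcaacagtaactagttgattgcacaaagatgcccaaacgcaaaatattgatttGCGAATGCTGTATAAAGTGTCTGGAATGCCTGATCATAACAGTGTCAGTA
In global alignment, the windows of Cyp2c68 and Cyp2c69 were identical at 91.1% of positions and those of Cyp2c65 and Cyp2c66 at 77.8%. The window of Cyp2c55 matched that of Cyp2c65 at 53.2%, and the remaining pairs matched at 45.8% to 50%. Motifs were searched on both strands: AGGTCA, the half-site of many nuclear receptors, TGACCTTTG, a site type of HNF4 that contains its reverse complement, the E-box CACGTG, and TTATGTAA and TTACGTAA, to which clock output factors bind. None of these motifs occurs in the 5 windows. Of the 15 tested members with a window, 2 held AGGTCA (Cyp3a11 and Cyp2f2), against 16.3% of 32851 windows of all genes, and 1 held CACGTG (Cyp2j6), against 7.15%. The other 3 motifs were in 0 of the 15, against 0.478%, 0.938% and 0.119% of all windows.

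Cyp2c55, an arachidonic and linoleic acid hydroxylase known from mouse caecum and colon (chromosome 19, 39007019 to 39042693, GRCm38), was among the most abundant members. Its levels were 23.5, 403, 43.4, 38.6 and 291 FPKM on the pro-inflammatory diet and 114, 61.3, 111, 28.2 and 23.7 FPKM on the normal diet. Libraries 2 and 5 of the pro-inflammatory diet were the highest of all, and the other 3 lay within the range of the normal diet but for library 1, which was just below it. The means were 160 ± 175 FPKM on the pro-inflammatory and 67.6 ± 43.4 FPKM on the normal diet (SD, n = 5 each), with a log2 fold change of 0.63 (SE 0.83, limma adjusted p = 0.694). Without libraries 2 and 5, the log2 fold change was -0.69 (SE 0.53, limma adjusted p = 0.536), and over all alternatives it ran from -0.71 with a distal colon covariate to 1.70 without normal diet libraries 1, 2 and 3.

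Cyp2c65, its neighbour in the same subfamily and also known from the gut (chromosome 19, 39061015 to 39093944), showed the same order. It had 1.31, 221, 6.14, 3.51 and 194 FPKM on the pro-inflammatory diet and 10.7, 4.67, 16.8, 4.18 and 1.77 FPKM on the normal diet. The pair of high libraries lay far above the highest normal diet library, and the groups overlapped through the other 3. Its log2 fold change was the largest of the tested members at 1.51, with a wide interval (95% interval -1.36 to 4.39, limma adjusted p = 0.538), and ran from -0.74 without libraries 2 and 5 (SE 0.59) to 3.05 without libraries 1 and 3 (limma adjusted p = 0.215). Cyp2c66, the next gene, had 76 and 77 reads in libraries 2 and 5 (2.66 and 2.97 FPKM), 2 reads in pro-inflammatory diet library 4, 1 read in normal diet library 1 and 0 reads in the other 6 libraries, where a count of 0 allows up to 3 reads. Of the 100-base stretches in the transcripts of Cyp2c65, 7.82% also occur in Cyp2c66, so reads between these 2 could be shared in part; for Cyp2c55 none occurs in another gene.

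Cyp2c68 and Cyp2c69 ran the other way. Cyp2c68 (chromosome 19, 39688834 to 39741054) had 69.2, 1.18, 48.5, 64.1 and 6.31 FPKM on the pro-inflammatory diet and 53.6, 60.6, 54.0, 42.0 and 72.2 FPKM on the normal diet. Libraries 2 and 5 were far below all others, and the remaining 8 lay between 42.0 and 72.2 FPKM. The log2 fold change was -1.47 (SE 0.89, limma adjusted p = 0.393), and 0.11 without libraries 2 and 5 (SE 0.17). Cyp2c69 (chromosome 19, 39842814 to 39886799) had 5.48, 0.226, 5.32, 4.88 and 1.70 FPKM on the pro-inflammatory diet and 7.31, 4.76, 5.72, 3.62 and 4.47 FPKM on the normal diet, again lowest in libraries 2 and 5. This gave a log2 fold change of -0.67 (SE 0.43, limma adjusted p = 0.422), and 0.04 without the pair (SE 0.17). These genes are hard to separate: 36.3% of the 100-base stretches of Cyp2c69 and 19.8% of those of Cyp2c68 occur in another gene, mostly in Cyp2c40. Cyp2c40, with 44.1% of its stretches found elsewhere, itself had at most 12 reads.

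**Figure D2:**
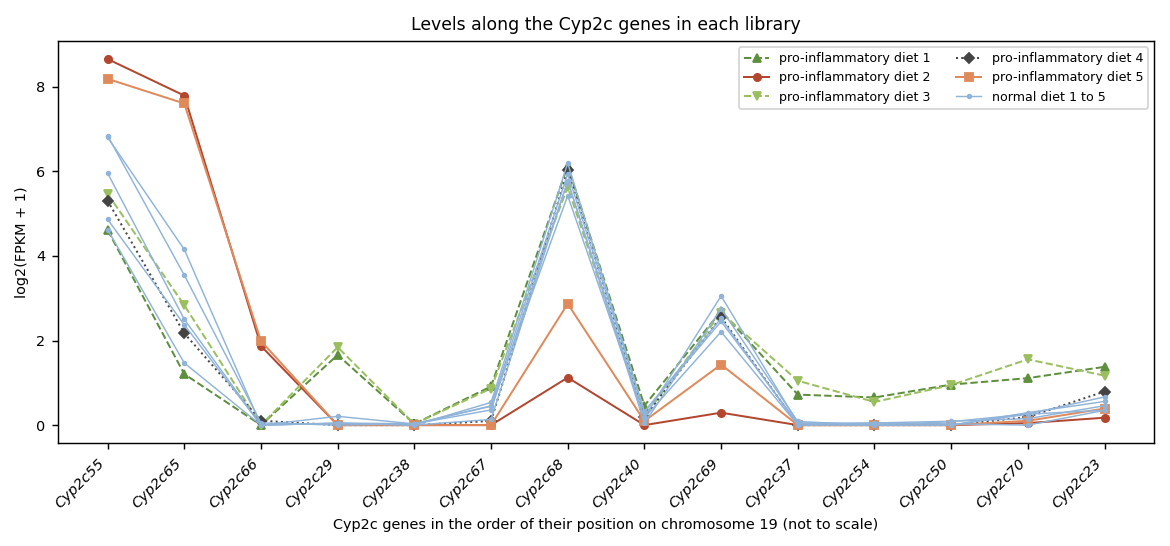
Level, as log2(FPKM + 1), of the 14 Cyp2c genes in the order of their position on chromosome 19, with 1 line per library. Pro-inflammatory diet libraries 2 and 5 (red and orange) are the highest at Cyp2c55, Cyp2c65 and Cyp2c66 and the lowest at Cyp2c68 and Cyp2c69, while libraries 1 and 3 (green) are above the rest at Cyp2c29, Cyp2c37, Cyp2c54, Cyp2c50 and Cyp2c70.

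Subfamily 2d, a cluster on chromosome 15 related to the human drug-metabolising enzyme CYP2D6, was the largest part of the total in 8 of 10 libraries. Cyp2d34 (82615965 to 82620946) led with 188, 101, 119, 156 and 98.0 FPKM on the pro-inflammatory diet and 149, 116, 114, 161 and 197 FPKM on the normal diet. The ranges overlapped widely, with libraries 2 and 5 of the pro-inflammatory diet lowest, and the log2 fold change was -0.17 (95% interval -0.63 to 0.29, limma adjusted p = 0.672). Cyp2d12 (82555072 to 82560403) varied much more, with 71.3, 2.90, 41.1, 58.3 and 4.83 FPKM on the pro-inflammatory diet and 42.6, 40.9, 36.3, 54.7 and 70.5 FPKM on the normal diet. Libraries 2 and 5 again held the 2 lowest values. Its log2 fold change of -1.21 (SE 0.79, limma adjusted p = 0.426) became 0.22 without them (SE 0.23).

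Cyp2d10 (chromosome 15, 82402846 to 82407195) had 37.2, 6.59, 29.0, 34.4 and 10.3 FPKM on the pro-inflammatory diet and 23, 25.8, 23.7, 37.5 and 38.4 FPKM on the normal diet. Cyp2d9, a testosterone hydroxylase of male mouse liver (82433437 to 82456845), had 15.4, 1.87, 13.2, 12.9 and 8.95 FPKM on the pro-inflammatory diet and 14, 12.0, 14.2, 13.3 and 12.8 FPKM on the normal diet. Both were lowest in libraries 2 and 5, and the other pro-inflammatory diet libraries overlapped with the normal diet. The log2 fold changes were -0.56 for Cyp2d10 (SE 0.44, limma adjusted p = 0.503) and -0.53 for Cyp2d9 (SE 0.41, limma adjusted p = 0.487), and 0.20 and 0.06 without the pair. Of the 100-base stretches, 14.8% of Cyp2d10, 9.86% of Cyp2d9 and 3.79% of Cyp2d12 occur in another gene, mostly of the same cluster. Cyp2d22, the closest mouse counterpart of CYP2D6 (82370527 to 82380260), had 16.1, 9.81, 10.8, 13.0 and 8.37 FPKM on the pro-inflammatory diet and 14.2, 11.8, 13.5, 12.2 and 15.7 FPKM on the normal diet, a narrow spread with libraries 2 and 5 at its foot. Its log2 fold change was -0.22 (95% interval -0.56 to 0.11, limma adjusted p = 0.434).

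Cyp2d26 was high where the other tested Cyp2d genes were low, and had the smallest p of the 18 tested members. It lies at 82790101 to 82794294 on chromosome 15 and had 15.1, 55.2, 9.42, 8.0 and 54.2 FPKM on the pro-inflammatory diet and 9.47, 8.0, 9.14, 7.69 and 10.6 FPKM on the normal diet. Libraries 1, 2 and 5 of the pro-inflammatory diet were above every normal diet library, and libraries 3 and 4 were within their range. The means were 28.4 ± 24.2 FPKM on the pro-inflammatory and 8.98 ± 1.18 FPKM on the normal diet (SD, n = 5 each). The log2 fold change was 1.12 (SE 0.51, limma p = 0.0513, adjusted p = 0.290; two-sided exact permutation p = 0.0952, where the smallest possible is 0.00794). Without libraries 2 and 5 it was 0.21 (SE 0.18, limma adjusted p = 0.577).

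Cyp2f2, known from the club cells of the lung, where it activates naphthalene (chromosome 7, 27119909 to 27133660), was nearly absent from the same 2 libraries. It had 20, 0.126, 10.2, 13.4 and 0.449 FPKM on the pro-inflammatory diet and 12.5, 14.3, 10.3, 13.3 and 18.9 FPKM on the normal diet. Leaving libraries 2 and 5 aside, all values lay between 10.2 and 20 FPKM. The log2 fold change was -1.38 (SE 0.79, limma adjusted p = 0.372), and 0.04 without the pair (SE 0.22). Libraries 2 and 5 were the 2 lowest for 8 of the 18 tested members (Cyp2c68, Cyp2c69, Cyp2d9, Cyp2d10, Cyp2d12, Cyp2d22, Cyp2d34 and Cyp2f2), or 44.4%, and for 17.4% of all tested genes. They were the 2 highest for 4 (Cyp2c55, Cyp2c65, Cyp2d26 and Cyp2j6), or 22.2%, and for 13.9% of all tested genes. This pair was singled out by distal colon genes after the data were seen, and the counts describe it without a test. Genes of the small intestine, from a list of 7, summed to 841 and 647 FPKM in these libraries, 55.8 to 101 FPKM in pro-inflammatory diet libraries 1, 3 and 4, and 47.8 to 319 FPKM on the normal diet; the highest normal diet sum was that of library 4. Lct, the lactase of the small intestine, had 0.0555 and 0.0407 FPKM in the pair and 1.47 FPKM in normal diet library 4. The part of the sampled stretch of gut in these differences was not tested.

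**Figure D3:**
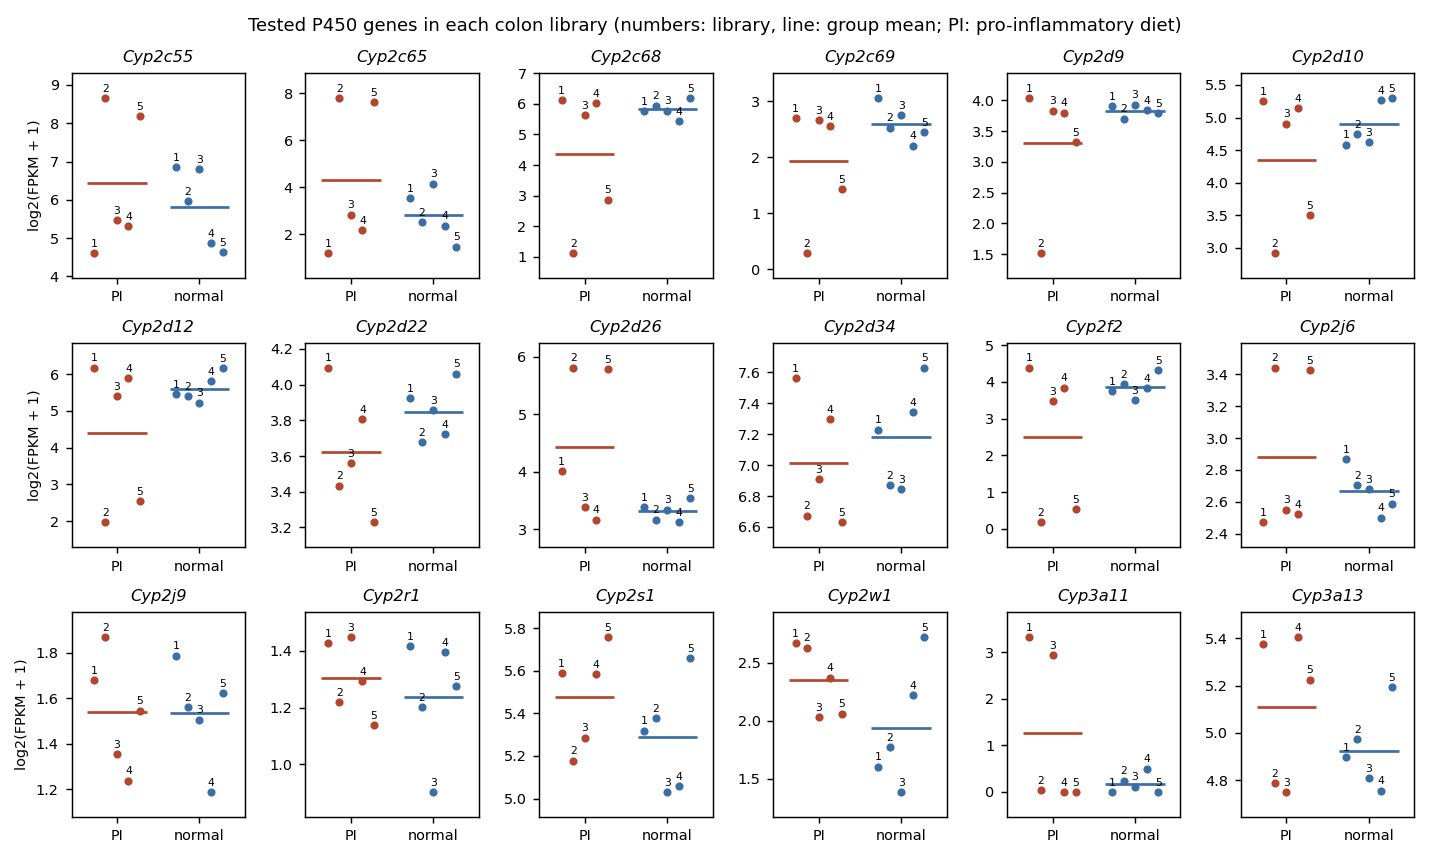
Level, as log2(FPKM + 1), of each of the 18 tested genes, with the 5 pro-inflammatory diet libraries (PI, red) left of the 5 normal diet libraries (blue); numbers give the library and lines the group mean. Points 2 and 5 of the pro-inflammatory diet are the 2 highest in 4 panels and the 2 lowest in 8. Points 1 and 3 are the 2 highest for Cyp2r1 and Cyp3a11, or 11.1% of the panels, against 2.8% of all tested genes. This share is not read as an excess. Cyp3a11 passed the filter only through these 2 libraries, and Cyp2r1 had 1.69 and 1.73 FPKM in them against up to 1.67 FPKM elsewhere.

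Cyp2s1 and Cyp2w1 did not set libraries 2 and 5 of the pro-inflammatory diet apart. Cyp2s1, an epithelial enzyme linked to retinoids and to the aryl hydrocarbon receptor (chromosome 7, 25802475 to 25816913), had 47.1, 35.2, 38.0, 47.0 and 53.1 FPKM on the pro-inflammatory diet and 38.9, 40.6, 31.7, 32.3 and 49.5 FPKM on the normal diet. Its values overlapped widely, and the log2 fold change was 0.19 (95% interval -0.13 to 0.51, limma adjusted p = 0.482). Cyp2w1, known from fetal gut and colon tumours (chromosome 5, 139352617 to 139357033), had 5.36, 5.20, 3.09, 4.18 and 3.17 FPKM on the pro-inflammatory diet and 2.04, 2.41, 1.61, 3.67 and 5.60 FPKM on the normal diet. Normal diet libraries 1 to 3 were the 3 lowest, and library 5 of the same diet was the highest. The log2 fold change of Cyp2w1 was 0.41 (SE 0.25, limma adjusted p = 0.386), and -0.12 without these 3 libraries. Dbp, a clock output factor, had 12.4 to 54.3 FPKM on the pro-inflammatory diet, 1.79, 3.29 and 6.69 FPKM in normal diet libraries 1 to 3, and 35.4 and 42.6 FPKM in normal diet libraries 4 and 5. The part of the clock genes in the difference of Cyp2w1 was not tested.

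Cyp2j6, known from the small intestine, averaged 6.75 ± 2.80 FPKM on the pro-inflammatory and 5.38 ± 0.613 FPKM on the normal diet (SD, n = 5 each), with its 2 highest values, 9.87 and 9.76 FPKM, in libraries 2 and 5. This gave a log2 fold change of 0.22 (SE 0.21, limma adjusted p = 0.585), and -0.15 without them. Cyp2j9, of the same subfamily, averaged 1.94 ± 0.514 FPKM on the pro-inflammatory and 1.92 ± 0.427 FPKM on the normal diet, a log2 fold change of 0.01 (95% interval -0.31 to 0.33). Cyp2r1, a vitamin D hydroxylase of liver, averaged 1.48 ± 0.225 FPKM on the pro-inflammatory and 1.38 ± 0.323 FPKM on the normal diet, a log2 fold change of 0.07 (95% interval -0.19 to 0.33). Among the other genes of vitamin D handling, 4 of 6 were tested and 0 passed at an unadjusted limma p under 0.05, where the smallest p values belonged to Cyp27a1 (log2 fold change -0.26) and Dhcr7 (0.28).

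Family 3 was carried by Cyp3a13, a steroid and drug hydroxylase of the intestine (chromosome 5, 137892932 to 137921619). It had 40.5, 26.6, 25.9, 41.4 and 36.4 FPKM on the pro-inflammatory diet and 28.8, 30.4, 27.0, 26.0 and 35.6 FPKM on the normal diet. Libraries 1, 4 and 5 of the pro-inflammatory diet were above every normal diet library, library 2 lay within their range and library 3 just below it. The log2 fold change was 0.18 (95% interval -0.15 to 0.51, limma adjusted p = 0.514). Cyp3a11, the main hepatic enzyme of the family and a classical PXR target (chromosome 5, 145854426 to 145879964), had 9.04, 0.0278, 6.68, 0 and 0 FPKM on the pro-inflammatory diet and 0, 0.186, 0.0817, 0.414 and 0 FPKM on the normal diet. It was thus near or at 0 in all but pro-inflammatory diet libraries 1 and 3, the 2 with the highest Alb. It passed the filter only through these 2 libraries, so its fold changes describe them and support no difference between the diets. Over all libraries its log2 fold change was 1.09; leaving out libraries 2 and 5 it was 1.92, and leaving out libraries 1 and 3 it was -0.16.

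**Figure D4:**
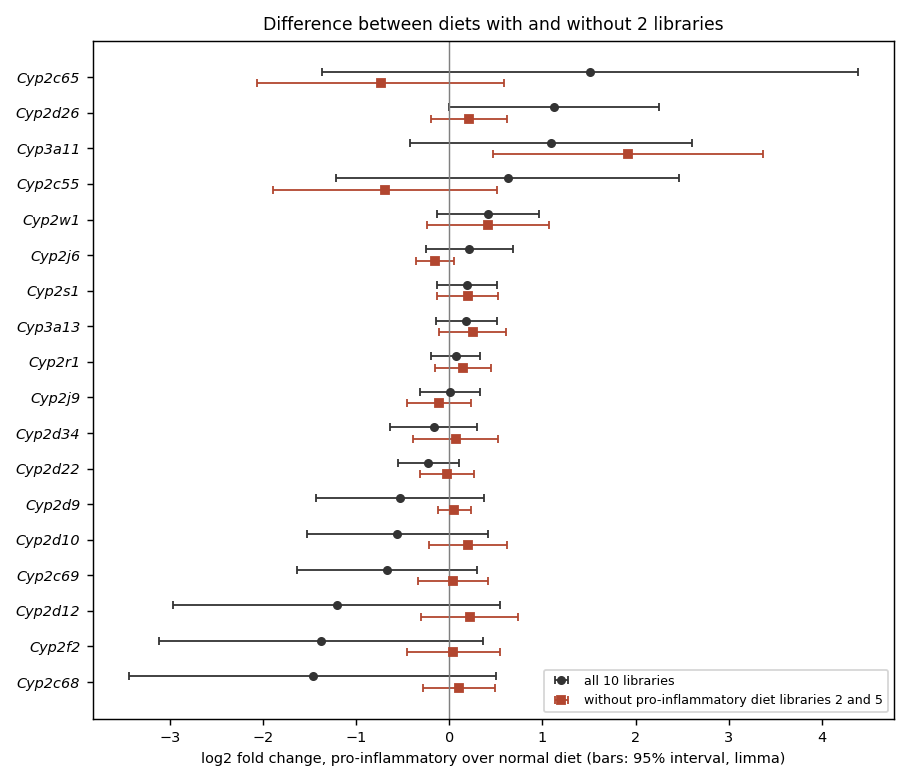
Log2 fold change, pro-inflammatory over normal diet, of each of the 18 tested genes with its 95% interval from limma, over all 10 libraries (black circles) and without pro-inflammatory diet libraries 2 and 5 (red squares). With all libraries every interval includes 0, and without the pair the points of Cyp2c55, Cyp2c65 and Cyp2j6 move below 0 and those of Cyp2c68, Cyp2f2 and Cyp2d12 above it. Cyp3a11, whose interval then lies above 0, passed the filter only through pro-inflammatory diet libraries 1 and 3.

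The 28 members under the filter held few reads. Their highest single value was 2.97 FPKM, and 26 of the 46 members were listed at 0 in at least 1 library. For 12 of the 28, pro-inflammatory diet libraries 1 and 3 were the 2 highest (42.9%, against 3.72% of the 6053 genes under the filter): Cyp2a5, Cyp2a12, Cyp2c23, Cyp2c29, Cyp2c37, Cyp2c50, Cyp2c54, Cyp2c67, Cyp2c70, Cyp2j5, Cyp3a25 and Cyp3a59. Many of these are known as liver enzymes in the mouse. Cyp2c29 had 70 and 87 reads in libraries 1 and 3 (2.16 and 2.59 FPKM), against at most 5 reads in any other library. Cyp2a5, the coumarin hydroxylase, had 38 and 59 reads, against at most 2. Cyp2c70, which makes muricholic bile acids in mouse liver, had 35 and 61 reads, against at most 7.

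Liver genes were high in the same 2 libraries. Of the 14 hepatocyte genes, 13 were tested, and 12 had a positive log2 fold change and 1 a negative one, with 0 at an unadjusted limma p under 0.05. Their summed level was 280 and 287 FPKM in pro-inflammatory diet libraries 1 and 3, 20.3, 53.9 and 19 FPKM in libraries 2, 4 and 5, and 46.4 to 66.4 FPKM in the normal diet libraries. In libraries 2, 4 and 5 of the pro-inflammatory diet 4 of the 14 were listed at 0, and in the other 7 libraries none was. Ttr, the most abundant of the list, was not limited to libraries 1 and 3: it had 48.3, 0.910, 48.1, 32.8 and 2.57 FPKM on the pro-inflammatory diet and 26.2 to 38.6 FPKM on the normal diet. Whether liver RNA contributed to the P450 values of libraries 1 and 3 was not tested.

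Another 6 members had their highest value in normal diet library 4 (21.4%, near the 21.1% of all genes under the filter): Cyp2b10, Cyp2b19, Cyp2b23, Cyp2j8, Cyp2j12 and Cyp3a57. Cyp2b19, an arachidonic acid epoxygenase of mouse skin keratinocytes, was listed at 0 in all pro-inflammatory diet libraries and had 2.59 FPKM in normal diet library 4 and 0 in the other 4. Cyp2b10, the classical target of CAR, had at most 7 reads on the pro-inflammatory diet, 71 reads in normal diet library 4 (2.14 FPKM) and at most 1 read in the other normal diet libraries. The 8 genes of stratified squamous epithelium, a list drawn up after these values were seen, summed to 0.265 to 2.06 FPKM on the pro-inflammatory diet, to 300 FPKM in normal diet library 4, where Krtdap led with 111 FPKM, and to at most 1.52 FPKM in the other normal diet libraries. Their part in the values of these genes was not tested. Cyp3a44 had 14 and 3 reads in pro-inflammatory diet libraries 2 and 5 and 0 elsewhere. The remaining 8, Cyp2a4, Cyp2b9, Cyp2c38, Cyp2c40, Cyp2d11, Cyp2d40, Cyp2j13 and Cyp2u1, had at most 53 reads in any library. Among them, Cyp2u1, a fatty acid hydroxylase, had reads in all 10 libraries, with 9 to 53 reads on the pro-inflammatory and 13 to 43 reads on the normal diet.

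**Figure D5:**
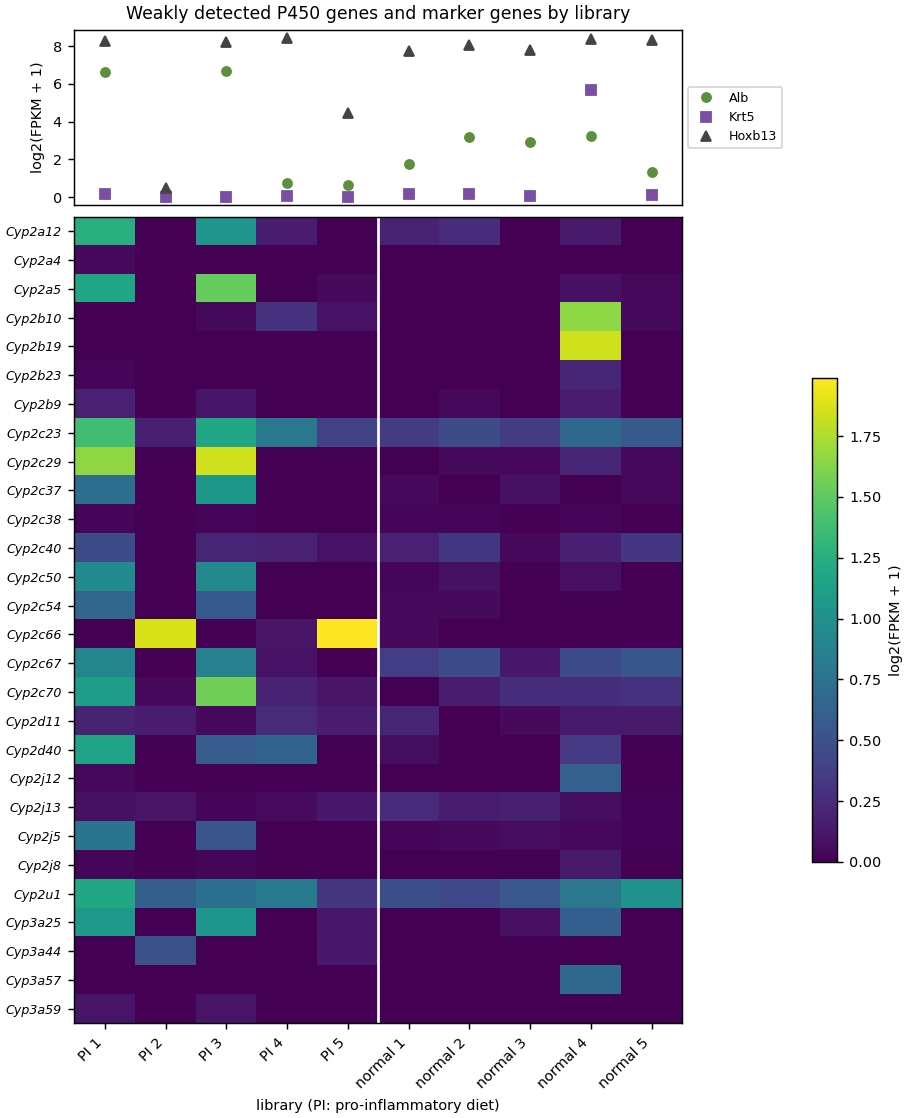
Top: level, as log2(FPKM + 1), of Alb, Krt5 and Hoxb13 in each library. Bottom: colour scale of the same quantity for the 28 genes under the filter, with the pro-inflammatory diet libraries left of the white line; Cyp2c29 and Cyp2c70 are brightest in libraries 1 and 3, Cyp2c66 in libraries 2 and 5, and Cyp2b10 and Cyp2b19 in normal diet library 4.

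Genes that supply, regulate or follow these enzymes were read from the same fit, and 0 of them passed at an adjusted p under 0.05. Of 6 electron donors, 2 were higher and 1 was lower at an unadjusted p under 0.05, against 8.16% and 9.25% of all tested genes. Por, the P450 reductase, had 36.4, 47.0, 39.3, 37.4 and 54.4 FPKM on the pro-inflammatory diet and 30.0, 28.3, 31.0, 39.5 and 31.0 FPKM on the normal diet, so that only normal diet library 4 overlapped. Por had a log2 fold change of 0.41 (SE 0.12, limma adjusted p = 0.183), and of 0.24 without libraries 2 and 5, where it was highest. Fold changes on the log2 scale were 0.38 for Cyb5b and -0.27 for Pgrmc2, which was lowest in these 2 libraries and at -0.15 without them. Of 9 tested genes of 12 for epoxides and arachidonic acid, 1 was higher and 0 were lower, near the same shares of all tested genes. The higher gene was Ephx2, the soluble epoxide hydrolase. It had 11.8 ± 0.933 FPKM on the pro-inflammatory and 9.65 ± 0.949 FPKM on the normal diet (n = 5 each, SD), a log2 fold change of 0.27 (limma adjusted p = 0.173).

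Of 24 nuclear receptors and other factors of P450 genes, 21 were tested. Rxra, the shared partner of PXR and CAR, was higher at an unadjusted p under 0.05, with a log2 fold change of 0.35 (SE 0.12, limma adjusted p = 0.197). It was highest in libraries 2 and 5, at 30.0 and 30.9 FPKM, and its log2 fold change was 0.17 without them. Nr1i2, which encodes PXR, differed little, at 31.0 ± 1.94 FPKM on the pro-inflammatory and 31.7 ± 2.91 FPKM on the normal diet (n = 5 each, SD), a log2 fold change of -0.03 with an SE of 0.07. Nr1i3, which encodes CAR, had 2.74, 0.149, 1.77, 2.49 and 0.381 FPKM on the pro-inflammatory diet and 0.800 to 1.57 FPKM on the normal diet, lowest in libraries 2 and 5. Of 16 other gut targets of PXR and CAR, 14 were tested. At an unadjusted p under 0.05, 3 were higher and 0 lower, against 8.16% and 9.25% of all tested genes. The 3 were Aldh1a7 (log2 fold change 0.68), Abcc3 (0.43) and Papss2 (0.36). Abcc3, at 81.2 and 62.8 FPKM, and Papss2, at 117 and 126 FPKM, were highest in libraries 2 and 5 of the pro-inflammatory diet, and their log2 fold changes were 0.14 and 0.12 without them, while that of Aldh1a7 was 0.74. In the same list Ugt1a1, which conjugates bilirubin, had 27.3 and 28.4 FPKM in libraries 2 and 5, against at most 2.69 FPKM elsewhere, and Aldh1a1, a retinal dehydrogenase, had 86.2 and 106 FPKM, against at most 21.9 FPKM. The 4 clock output factors gave 0 genes in either direction, with the smallest p for Tef (log2 fold change 0.92) and Dbp (1.44). Of 4 cytokines, Il1b alone was tested and was higher at an unadjusted p under 0.05, with a log2 fold change of 0.41 (SE 0.15, limma adjusted p = 0.222), and 0.25 without libraries 2 and 5.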

How the data were processed

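Colon RNA was measured by RNA-seq in 10 samples. Per the labels' protocols, a strand-preserving mRNA kit and paired reads were used. The authors deposited 1 table of FPKM values per gene symbol and sample. Build mm10 and the tools HTSeq, StringTie, Cufflinks, DESeq, Trimmomatic, Bowtie2 and HISAT2 are listed, per the submitters' processing notes, without their roles. No source used here says if counting was by strand, so overlapping and near-identical genes are uncertain. Since FPKM is scaled to each library's total, a few abundant genes lower all others.

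Groups follow the treatment label, and libraries are numbered as in their titles. The values of 18398 of 18398 genes were whole multiples of 1 read, within 0.001 read, except that for genes with reads in very few libraries (Cyp2b19, Cyp3a57, Cyp3a59) the number of reads is not fixed and FPKM alone are given. The 12345 genes averaging at least 1 FPKM entered limma 3.58.1 (R 4.3.3) as log2(FPKM + 1) (eBayes with trend, Benjamini-Hochberg adjustment over all tested genes, threshold 0.05). An exact permutation test, two-sided, over all 252 ways to place 5 of 10 libraries was run in R on all tested genes, and its p is printed for Cyp2d26. The t quantiles of the 95% intervals came from scipy 1.17.1. The fit was tested on simulated data. FPKM steps rest on 15652783 to 18341956 reads per library, and a count of 0 allows 3 reads, for counting error only.

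Coordinates are from GENCODE M21 on GRCm38, the assembly of mm10, and promoter windows from RefSeq GRCm38.p6. Stretches shared between transcripts were counted over 100-base windows. Figures were drawn with matplotlib 3.10.9. The members and lists were chosen with earlier results of these data known. Values per sample are given for tested members with a mean of at least 10 FPKM and for the 10 with the smallest p; from each partner list, members at an unadjusted p under 0.05, otherwise the 2 with the smallest p. A few results of these lists are not reported here. Ugt1a1, Aldh1a1, Nr1i2, Nr1i3 and the single marker genes were named after their values were seen. Alternatives changed the pseudocount, filter, scaling and test, added a replicate block or covariates, and left out libraries. Leaving out pro-inflammatory diet libraries 1 and 3, the hepatocyte covariate and the squamous list were chosen after seeing the data.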

Additional observations from a re-analysis of the deposited data

Results flagged for a closer look

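Within the 18 tested members, 36 groups of 5 libraries were examined for a single library far from the others, and chance marks about 1 in 20 such groups. Only Cyp2d9 in pro-inflammatory diet library 2, at 1.87 FPKM, stood out. On the log2(FPKM + 1) scale, its gap to the nearest library took up 0.714 of the group's range, just above Dixon's critical value of 0.71. The flag holds for that scale alone, not for the FPKM values themselves. Where libraries 2 and 5 were extreme together, this comparison does not mark either.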

How the results depend on the processing

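In 27 alternatives, 10 of them leaving out 1 library each, 0 members were called at an adjusted p under 0.05. The smallest limma adjusted p of any member was 0.145, for Cyp3a11 with the hepatocyte covariate, which was chosen after seeing the data. Of 486 fold changes of single members, 451 kept their direction and 35 turned. With the changed filters, without trend, with the permutation test and with the replicate block, fold changes equal those of the main fit by construction. They could not turn there, so the share that kept its direction is no measure of robustness. Calls over all genes moved from 0 to 1 with a distal colon covariate (Kyat1) and to 2 with a tissue make-up covariate (Mylip and Sfn). Members higher at an unadjusted p under 0.05 numbered 1 with a pseudocount of 0.1, with median-of-ratios scaling and with quantile normalization (Cyp2d26 each), 1 with the distal colon covariate and without pro-inflammatory diet libraries 2 and 5 (Cyp3a11 each), 1 with the tissue make-up covariate (Cyp3a13), 2 with a hepatocyte covariate (Cyp2d26 and Cyp3a11) and 2 without pro-inflammatory diet libraries 1 and 3 (Cyp2c65 and Cyp2d26), while 5.71% to 10.4% of all tested genes were higher in these 8 fits. Members lower at that threshold numbered 1 with a clock covariate (Cyp2d34), 4 with the hepatocyte covariate (Cyp2c68, Cyp2c69, Cyp2d12 and Cyp2f2) and 6 without pro-inflammatory diet libraries 1 and 3 (these 4, Cyp2d10 and Cyp2d22); of all tested genes, 5.74%, 12.1% and 12.0% were lower in these 3 fits. Leaving out 1 library gave 0 to 1 higher (Cyp2d26 without pro-inflammatory diet library 3 or 4, Cyp2w1 without normal diet library 5) and 0 to 2 lower (Cyp2d22 and Cyp2f2 without pro-inflammatory diet library 1), while 5.25% to 9.87% of all tested genes were higher and 6.54% to 12.3% lower in such fits. Cyp3a11 is counted here although it passed the filter only through pro-inflammatory diet libraries 1 and 3. With normal diet libraries 1, 2 and 3 left out, 1 of 18 members was lower without overlap (Cyp2d10), as were 5.82% of all tested genes. A filter at a mean of 0.1 FPKM moved the median log2 fold change to 0.215, through members under the main filter. The cause of the other moves was not tested.

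Without pro-inflammatory diet libraries 2 and 5, log2 fold changes turned to -0.69 (Cyp2c55), -0.74 (Cyp2c65), 0.11 (Cyp2c68), 0.04 (Cyp2c69), 0.20 (Cyp2d10), 0.22 (Cyp2d12), 0.07 (Cyp2d34), 0.055 (Cyp2d9), 0.042 (Cyp2f2), -0.15 (Cyp2j6) and -0.11 (Cyp2j9). With the distal colon covariate they turned to -0.71 (Cyp2c55), -0.67 (Cyp2c65), 0.047 (Cyp2c68), 0.20 (Cyp2d10), 0.16 (Cyp2d12), 0.088 (Cyp2d34), 0.074 (Cyp2d9), -0.13 (Cyp2j6) and -0.13 (Cyp2j9), and with the tissue make-up covariate to -0.36 (Cyp2c55), -0.053 (Cyp2c65), 0.044 (Cyp2d10), 0.061 (Cyp2d22), 0.29 (Cyp2d34) and 0.019 (Cyp2d9). Without normal diet libraries 1, 2 and 3 they were -0.031 (Cyp2r1) and -0.12 (Cyp2w1), and without pro-inflammatory diet libraries 1 and 3 they were -0.021 (Cyp2r1) and -0.16 (Cyp3a11). Larger sizes came from leaving out libraries 1 and 3 of the pro-inflammatory diet, at 3.05 (Cyp2c65), -2.48 (Cyp2c68), -2.35 (Cyp2f2), -2.14 (Cyp2d12), 1.61 (Cyp2d26), -1.17 (Cyp2c69), -1.05 (Cyp2d10) and -0.95 (Cyp2d9). Leaving out 1 library gave -0.081 to 0.08 for Cyp2j9, negative in 4 of 10 such fits, and -0.017 (without normal diet library 3) to 0.112 for Cyp2r1.

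The replicate numbers are not stated to pair the samples. Deviations of same-numbered libraries correlated at -0.152, -0.14, -0.125, 0.0613 and -0.263, and 0 of 10 libraries correlated best with their own number. Libraries that stand apart weigh on these correlations, so they cannot exclude a pairing. A replicate block gave 0 members called and 1 higher at an unadjusted p under 0.05 (Cyp2d26), with 7.07% of all tested genes higher.

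Low reads limit the 28 members under the filter, which have at most 87 reads in a library apart from Cyp2b19, Cyp3a57 and Cyp3a59, whose reads are not fixed, and shared sequence limits the Cyp2c and Cyp2d clusters.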

Other observations

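Of the 35 other P450 genes, 12 were tested, with 0 at an adjusted p under 0.05. At an unadjusted limma p under 0.05 the pro-inflammatory diet had 3 higher and 0 lower, against 8.16% and 9.25% of all tested genes. Log2 fold changes were positive for 6 of the 12 and negative for 6, with a median of 0.05. Cyp4f14, an enzyme of the leukotriene and fatty acid hydroxylase family, had 49.1, 47.3, 31.7, 36.2 and 62.8 FPKM on the pro-inflammatory diet and 32.0, 23.4, 24.2, 28.2 and 34.9 FPKM on the normal diet (log2 fold change 0.63, SE 0.18, limma adjusted p = 0.173). Its groups overlapped only between pro-inflammatory diet library 3 and normal diet libraries 1 and 5. Cyp4f40, of the same family, had log2 fold change 0.63 (limma adjusted p = 0.206) and was highest in pro-inflammatory diet libraries 2 and 5, at 46.6 and 32.5 FPKM; without them its log2 fold change was 0.27. Cyp20a1 had log2 fold change 0.22 (limma adjusted p = 0.218). Summed over the 35 genes, the level was 138 to 207 FPKM on the pro-inflammatory and 128 to 161 FPKM on the normal diet.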
